A study of Mus musculus with 15 samples.

Results

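Erythroid, heme and red cell membrane genes, 36 in all, were followed in mouse whole blood. They serve heme synthesis, iron supply, the red cell membrane and its skeleton, and erythroid transcription. Others encode red cell enzymes or act in the removal of proteins and organelles during red cell maturation. The genes were taken by symbol, but the set was chosen with earlier results of these data known. Of the 36 genes, 32 had a probe set annotated with that gene alone, and the probe set of highest mean over the 15 arrays stood for each gene. All 32 were bright enough to be tested, among 12499 genes tested of 18193 genes with such a probe set. Epb41, Ahsp and Trim58 had no such probe set, and the 3 probe sets of Bnip3l are shared with its pseudogene. The 15 mice fell into 3 groups of 5, given vehicle, ABBV-075 at 1 mg/kg or ABBV-075 at 5 mg/kg, and blood was collected after 6 h. ABBV-075, also known as mivebresib, inhibits the bromodomains of the BET family, proteins that bind acetylated chromatin and help RNA polymerase II elongate. Vehicle mice received no ABBV-075, all animals were kept free of specific pathogens, and strain, sex, age, route and vehicle composition are not given in the sources used here. Each array held RNA from 1 mouse, so the spread within a group is the spread between mice together with that of the assay.

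Red cells are made in bone marrow and spleen from nucleated erythroblasts. Reticulocytes, which have lost the nucleus but keep messenger RNA for a short time, carry that RNA into the circulation, and mature red cells carry little. GATA1, with its partners, and KLF1 switch on the erythroid program of globin, heme and membrane genes in the precursors. Heme is built from glycine and succinyl-CoA by a chain of enzymes that begins with ALAS2 and ends with ferrochelatase, and band 3, the Rh proteins, ankyrin and spectrin tie the membrane to its skeleton. Whole blood RNA mixes reticulocytes with white cells and platelets, so fewer cells of a type and less RNA per cell cannot be told apart in these arrays.

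The 250 bases before the RefSeq start site are shown for 3 of the genes the results turn on. They are Alas2, which starts heme synthesis, Gata1, whose 5 mg/kg arrays all lay below the vehicle arrays, and Trim10. Capitals mark each match to AGATAA, a form of the GATA site, searched on both strands. Other forms of the site were not searched. The build is GRCm38.p6, and each sequence is written 5′ to 3′ on the gene's own strand. Alas2 lies on the plus strand at chrX:150547167-150547416, Gata1 on the minus strand at chrX:7967911-7968160 and Trim10 on the plus strand at chr17:36869324-36869573.
Alas2: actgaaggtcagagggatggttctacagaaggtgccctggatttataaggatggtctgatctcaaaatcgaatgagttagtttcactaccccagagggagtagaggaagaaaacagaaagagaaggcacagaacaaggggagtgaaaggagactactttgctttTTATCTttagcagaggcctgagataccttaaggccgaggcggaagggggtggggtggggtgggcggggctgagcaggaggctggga
Gata1: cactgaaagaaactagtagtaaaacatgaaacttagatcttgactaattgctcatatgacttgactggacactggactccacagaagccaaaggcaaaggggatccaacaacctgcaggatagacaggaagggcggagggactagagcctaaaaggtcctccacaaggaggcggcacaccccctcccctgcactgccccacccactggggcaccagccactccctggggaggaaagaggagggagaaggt
Trim10: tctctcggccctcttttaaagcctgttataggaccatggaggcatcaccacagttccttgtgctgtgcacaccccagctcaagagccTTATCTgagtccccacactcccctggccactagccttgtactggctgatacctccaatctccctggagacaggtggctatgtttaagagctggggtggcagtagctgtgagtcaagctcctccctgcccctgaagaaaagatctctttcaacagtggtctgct
The Alas2 match begins at position -86 and the Trim10 match at position -163, both on the opposite strand, and these letters were not in the Gata1 window. RefSeq promoters were at hand for 25 of the 36 genes, 34 promoters in all. AGATAA was found in 6 of the 34, or 17.6%, against 9.99% of all 32851 promoters. The other 4 with a match were Epb42, Kel, Rhd and 1 of the 3 promoters of Tmcc2. The CACC-type letters CCNCNCCC, also searched on both strands and apart from the GATA letters, were in 18 of the 34, or 52.9%, against 45.9% of all promoters. A match is only a run of letters in this window.

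None of the 32 genes passed an adjusted p of 0.05 at either dose. At 5 mg/kg 28 of the 32 had a lower mean than vehicle, where 53.4% of all tested genes did, and the median difference over the members was -0.37 on the log2 scale against -0.03 over all genes tested. At 1 mg/kg 26 of the 32 were lower, where 53.0% of all tested genes were, with a median of -0.11 against -0.02. The genes with the largest differences at 5 mg/kg were Car1, which encodes a cytosolic carbonic anhydrase of red cells, Rhd and Ermap of the membrane, and Xpo7, Cpox and Trim10. Members at 1 mg/kg and at 5 mg/kg were set against the same vehicle arrays, so the 2 counts are not independent. Members of 1 cell lineage also share each mouse's blood, so neither count nor median is a test.

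Across all genes, limma called 11 of 12499 at 5 mg/kg against vehicle (0.0880%), 1 at 1 mg/kg (0.00800%) and 0 between the doses (0%), all at an adjusted p under 0.05. The members held 0 of these calls in each comparison. At an unadjusted p under 0.05, 5 members were lower at 5 mg/kg (Car1, Gata1, Trim10, Car2 and Gypc) where 4.26% of all genes were, and 0 were higher. At 1 mg/kg 0 members were lower at that level, where 4.06% of all genes were. Only Gata1 had 5 arrays at 5 mg/kg that all lay below the 5 vehicle arrays, a pattern held by 1.46% of all genes, and 0 members had it at 1 mg/kg, where 0.720% of genes did. The smallest adjusted p of any member, from limma with Benjamini-Hochberg adjustment, was 0.328 at 5 mg/kg and 0.891 at 1 mg/kg.

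**Figure D1:**
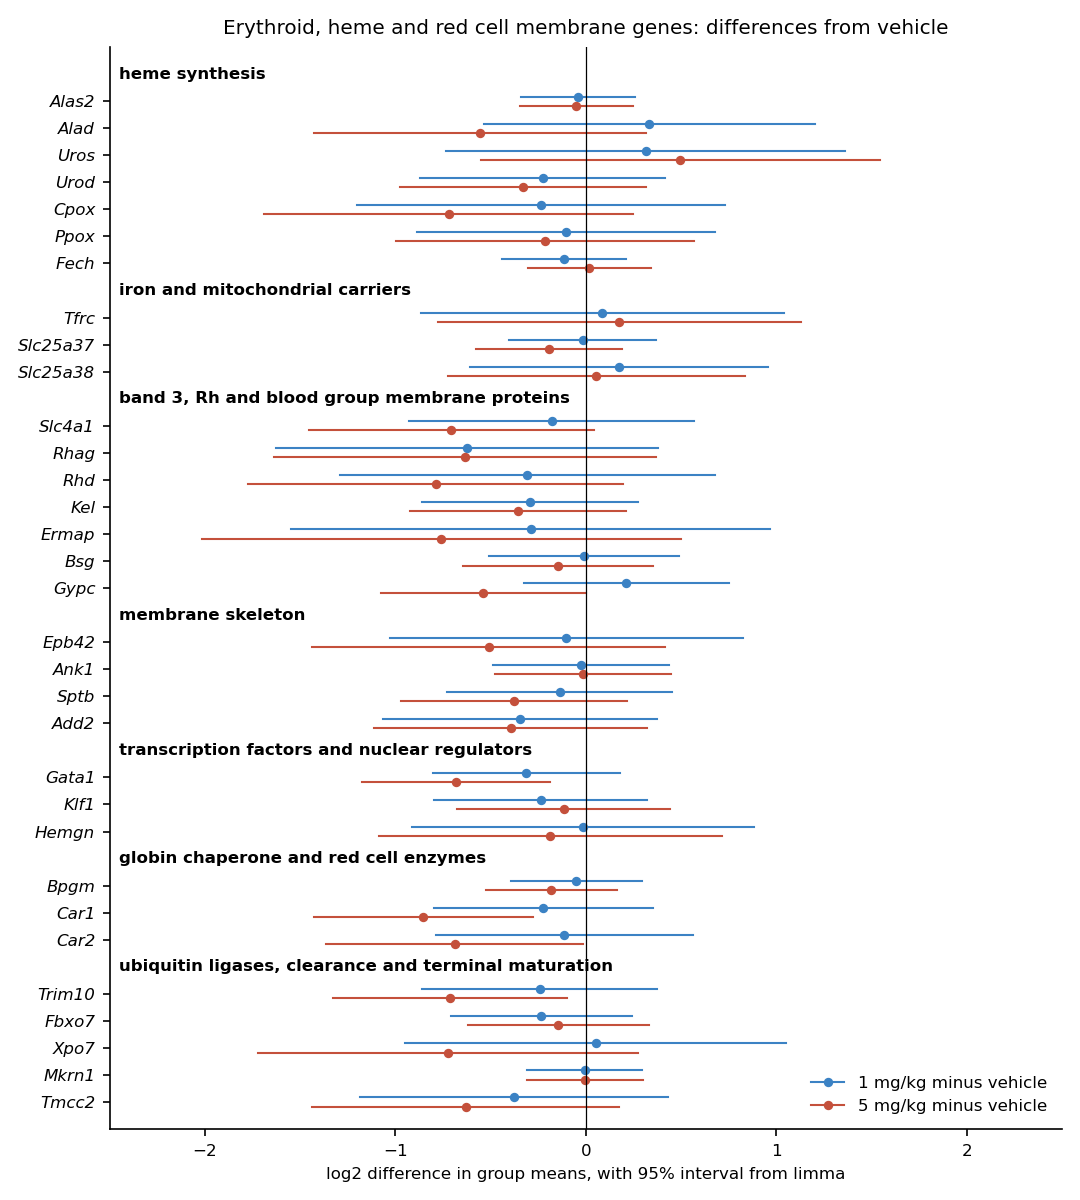
Log2 differences from vehicle of the 32 measured members, grouped by role, with points for the difference in group means (n = 5 arrays each) and lines for the 95% interval from limma; blue is 1 mg/kg and red is 5 mg/kg. Most red points lie left of 0, the intervals of Car1, Gata1, Trim10, Car2 and Gypc alone stay below it, and no member passed an adjusted p of 0.05.

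The arrays differed in ways that touch these values. Deposited array medians ran from 3.61 to 25.4, so values were quantile normalised and floored at 16, which is 4 on the log2 scale. Control probe sets were instead read from the deposited intensities, without scaling between arrays. Those for 18S ribosomal RNA had a log2 signal of 11.19 ± 0.94 in vehicle, against 9.97 ± 0.43 at 1 mg/kg and 9.42 ± 0.42 at 5 mg/kg (SD, n = 5 arrays each). By an exact two-sided permutation test the 5 mg/kg difference had p = 0.00794, the smallest that 5 against 5 arrays can give, and an adjusted p of 0.0794 over 20 tests; the 1 mg/kg difference had p = 0.0397 and an adjusted p of 0.198. Monocyte markers, 11 in all, had a mean log2 level of 7.37 ± 0.32 in vehicle, 6.72 ± 0.29 at 1 mg/kg (SD, n = 5; exact permutation p = 0.0159, adjusted p = 0.106) and 6.22 ± 0.07 at 5 mg/kg (exact permutation p = 0.00794, adjusted p = 0.0794). All 5 arrays at 5 mg/kg lay below the vehicle arrays in that mean, with 11 of 11 markers lower. Markers of B cells (9 tested) averaged 6.91 ± 0.37 at 5 mg/kg against 6.39 ± 0.43 in vehicle (n = 5; exact permutation p = 0.0873, adjusted p = 0.218). Other white cell and platelet marker means had exact permutation p-values from 0.0714 to 0.651 over both doses, and the difference between 3′ and 5′ Actb control probe sets was 0.71 ± 0.18 in vehicle and 0.61 ± 0.16 at 5 mg/kg (SD, n = 5). With the 18S signal as a covariate 29 of the 32 members were lower at 5 mg/kg, with a median of -0.47, and 30 were, with a median of -0.49, once the 2 vehicle arrays with most 18S signal were left out. The 18S signal at 5 mg/kg (8.83 to 9.88) did not overlap that in vehicle (10.24 to 12.31), so this covariate cannot be separated from dose. The arrays left out were vehicle replicates 1 and 2, and replicate 2 was the vehicle array lowest for the members. Neither result can therefore show what the 18S difference contributes. The part of the white cell, platelet and 3′ to 5′ measures in the differences of the red cell genes was not tested.

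Among the groups by role, heme synthesis had the widest range of differences at 5 mg/kg. At that dose 5 of its 7 enzymes were lower and 2 higher, with a median of -0.21 and a range from -0.72 to 0.50, and 0 passed the test. At 1 mg/kg 5 were lower and 2 higher, with a median of -0.10.

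Alas2 encodes the erythroid aminolevulinate synthase, the first and rate-limiting enzyme of heme synthesis in red cell precursors. Its log2 values were 13.57, 13.49, 13.41, 13.49 and 13.43 on the vehicle arrays, 13.52, 13.38, 13.52, 13.35 and 13.41 at 1 mg/kg, and 13.43, 13.35, 13.49, 13.46 and 13.41 at 5 mg/kg. All 15 arrays lay within a narrow band and the 3 groups overlapped. The signal of its probe set was above that of 99.98% of genes tested, near the top of the array's range. Quantile normalisation gives the brightest probe sets of every array values from a shared list, so the narrow band is partly set by the processing. Deposited intensities ran from 8647 on 1 mg/kg replicate 1 to 13396 on vehicle replicate 1. The log2 difference was -0.05 ± 0.14 (SE) at 5 mg/kg, with a 95% interval from -0.35 to 0.25 (adjusted p = 0.978), and -0.04 ± 0.14 at 1 mg/kg (adjusted p = 0.974). Fech, whose product ferrochelatase puts iron into the porphyrin ring, had a mean signal of 13.39 and differed by 0.02 ± 0.15 at 5 mg/kg.

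The 5 enzymes between them had differences farther from 0, none past the test. Cpox, the mitochondrial coproporphyrinogen oxidase, differed by -0.72 ± 0.46 at 5 mg/kg and by -0.24 ± 0.46 at 1 mg/kg. Alad, which joins pairs of aminolevulinate, differed by -0.56 ± 0.41 at 5 mg/kg and by 0.33 ± 0.41 at 1 mg/kg. Urod, the uroporphyrinogen decarboxylase, differed by -0.33 ± 0.30 at 5 mg/kg, and Ppox, which makes protoporphyrin, by -0.21 ± 0.37. Uros, the uroporphyrinogen synthase, was the member with the largest positive difference, 0.50 ± 0.49, and 1 vehicle array held it at the floor while the other 4 lay between 6.26 and 6.89. None of these intervals, each from the probe set of highest mean, excluded 0. The other measured probe set gave -0.73 ± 0.32 for Cpox at 5 mg/kg (limma, unadjusted p = 0.0353, adjusted p = 0.556). For Urod it gave -0.78 ± 0.36 (limma, unadjusted p = 0.0479, adjusted p = 0.609), and for Ppox -0.27 ± 0.44 (limma, unadjusted p = 0.548).

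Of the iron and mitochondrial carriers, 2 of 3 were higher at 5 mg/kg and 1 lower, with a median of 0.06. Tfrc encodes the transferrin receptor, through which erythroblasts and dividing cells take up iron. Tfrc measured 6.16, 6.87, 8.35, 6.65 and 6.71 in vehicle, 6.44, 7.31, 6.62, 6.49 and 8.32 at 1 mg/kg, and 7.65, 6.94, 8.06, 6.44 and 6.53 at 5 mg/kg. Each group held at least 1 array above 8 on the log2 scale, and the groups overlapped throughout. Its log2 difference was 0.18 ± 0.45 at 5 mg/kg (adjusted p = 0.974) and 0.09 ± 0.45 at 1 mg/kg (adjusted p = 0.984), and the sign at 5 mg/kg turned in its other measured probe set, with the 18S signal as a covariate, and once the 2 vehicle arrays with most 18S signal were left out. The array's own Tfrc controls read 34.3 to 223 deposited intensity units at the 3′ end, while those for the middle and the 5′ end were negative on all 15 arrays. Slc25a37, the mitoferrin that carries iron into mitochondria, differed by -0.19 ± 0.18 at a mean level of 13.00, and Slc25a38, the mitochondrial glycine carrier, by 0.06 ± 0.37.

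The band 3, Rh and blood group proteins of the membrane were lower at 5 mg/kg in 7 of 7 cases, with a median of -0.63, and in 6 of 7 at 1 mg/kg, with a median of -0.29. None passed the test.

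Slc4a1 encodes band 3, the anion exchanger that is the most abundant protein of the red cell membrane. Its log2 values were 11.41, 11.24, 11.77, 11.45 and 11.88 in vehicle, 11.45, 11.39, 11.76, 10.38 and 11.87 at 1 mg/kg, and 11.50, 11.88, 10.54, 10.15 and 10.16 at 5 mg/kg. Replicates 3, 4 and 5 at 5 mg/kg and replicate 4 at 1 mg/kg lay below all vehicle arrays, while the first pair at 5 mg/kg lay among them. The log2 difference was -0.71 ± 0.35 at 5 mg/kg, or 1.63-fold lower (adjusted p = 0.680), and -0.18 ± 0.35 at 1 mg/kg (adjusted p = 0.959). Its 3 probe sets gave -0.71, -0.56 and -0.62 at 5 mg/kg.

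Rhag, the Rh-associated glycoprotein that brings the Rh complex to the membrane, measured 5.92, 5.38, 6.22, 6.16 and 6.30 in vehicle, 4.01, 5.99, 5.71, 4.63 and 6.52 at 1 mg/kg, and 6.42, 5.84, 4.99, 4.00 and 5.56 at 5 mg/kg. Both doses had arrays near the floor and arrays above the highest vehicle value. The differences were -0.63 ± 0.47 at 5 mg/kg (adjusted p = 0.829) and -0.62 ± 0.47 at 1 mg/kg (adjusted p = 0.893).

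Kel, the Kell blood group endopeptidase, measured 7.44, 6.70, 7.54, 6.91 and 7.62 in vehicle, 6.81, 7.18, 6.86, 6.29 and 7.60 at 1 mg/kg, and 7.25, 7.12, 6.99, 6.38 and 6.67 at 5 mg/kg. The groups overlapped, with the lowest array at each dose below the lowest vehicle array. Its differences were -0.36 ± 0.27 and -0.29 ± 0.27 at 5 and 1 mg/kg (adjusted p = 0.829 and 0.910). Rhd, the RhD antigen protein, differed by -0.79 ± 0.46 at 5 mg/kg and Ermap, the Scianna blood group protein, by -0.76 ± 0.59, but Ermap lay above the floor on only 2 of the 5 arrays in vehicle and on 2 of 5 at 5 mg/kg. Bsg, or basigin, which many cell types carry, differed by -0.15 ± 0.23.

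Gypc, which encodes glycophorin C and links the membrane to protein 4.1, was outside the rule for genes given array by array and was picked after its values were seen. Its log2 values were 4.45, 5.50, 5.28, 5.17 and 4.20 in vehicle, 5.06, 5.15, 5.32, 5.08 and 5.05 at 1 mg/kg, and 4.00, 4.27, 4.94, 4.48 and 4.22 at 5 mg/kg. All 5 arrays at 5 mg/kg lay below all 5 at 1 mg/kg, while both doses overlapped vehicle, and all values were close to the floor. The log2 difference between the doses was -0.75 ± 0.25 (adjusted p = 0.500), and that from vehicle -0.54 ± 0.25 at 5 mg/kg (adjusted p = 0.641). In the comparison of the doses 25 of the 32 members were lower at 5 mg/kg, with a median of -0.15. Of all 12499 genes tested 6533 were lower, with a median of -0.02. At an unadjusted p under 0.05 from limma 3 members (Gypc, Car1 and Alad) were lower, where 2.63% of all genes were. Gypc was the 1 member without overlap, a pattern of 0.240% of all genes.

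The membrane skeleton is a spectrin net pinned to the membrane by ankyrin and protein 4.2. By the probe set of highest mean, 4 of 4 measured genes were lower at both doses. Their medians were -0.39 at 5 mg/kg and -0.12 at 1 mg/kg, with 0 past the test. Epb42, the gene of protein 4.2, differed by -0.51 ± 0.44 at 5 mg/kg, Add2, of beta-adducin, by -0.40 ± 0.34, and Sptb, of erythroid beta-spectrin, by -0.38 ± 0.28. Ank1, of erythroid ankyrin, differed by -0.02 ± 0.22, with a 95% interval from -0.48 to 0.45. The other measured probe sets of these genes were dimmer, with means from 4.15 to 5.45, and did not all go lower. Epb42 gave -0.06 at 5 mg/kg and 0.54 at 1 mg/kg there, Sptb 0.17 and 0.27, and Add2 -1.01 and -0.68. Ank1 gave -0.06 at 5 mg/kg in both of its others, with -0.24 and 0.22 at 1 mg/kg.

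All 3 transcription factors and nuclear regulators had lower means at both doses. Gata1 encodes the master transcription factor of erythroid cells, which also acts in megakaryocytes, mast cells, eosinophils and basophils. It measured 7.81, 8.48, 8.53, 8.40 and 8.01 in vehicle, 8.03, 8.35, 8.26, 7.17 and 7.85 at 1 mg/kg, and 7.75, 7.51, 7.67, 7.29 and 7.60 at 5 mg/kg. The highest of the 5 mg/kg arrays lay just under the lowest vehicle array, and the 1 mg/kg arrays spanned both. The log2 difference was -0.68 ± 0.23 at 5 mg/kg, or 1.60-fold lower, with a 95% interval from -1.17 to -0.19, an unadjusted p of 0.00964 and an adjusted p of 0.385. At 1 mg/kg it was -0.31 ± 0.23 (adjusted p = 0.891). On the same arrays 10 of 10 platelet markers had lower means at 5 mg/kg, their mean log2 level being 8.29 ± 0.25 (from 8.06 to 8.68) against 8.67 ± 0.69 in vehicle (from 7.49 to 9.26; n = 5 each). At 1 mg/kg 10 of 10 were lower as well, with a mean level of 8.27 ± 0.12. Their median difference was -0.23 at 5 mg/kg and -0.43 at 1 mg/kg. The exact permutation p for the mean level was 0.302 at 5 mg/kg and 0.246 at 1 mg/kg. Only 2 of 10 eosinophil and basophil markers were bright enough to test: Prg2 lay near the floor in all groups, and Alox15 was 7.16 ± 1.53 in vehicle and 5.02 ± 1.41 at 5 mg/kg (adjusted p = 0.370). The part of these cells in the Gata1 difference was not tested.

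Klf1, the erythroid Kruppel-like factor that drives adult beta-globin, measured 7.13, 6.19, 6.97, 7.05 and 7.31 in vehicle, 7.29, 6.86, 6.62, 5.99 and 6.70 at 1 mg/kg, and 7.28, 6.44, 6.93, 6.59 and 6.83 at 5 mg/kg. The 3 groups covered nearly the same range. Its difference was -0.12 ± 0.26 at 5 mg/kg (adjusted p = 0.968), which turned to 0.02 without scaling between arrays, and -0.24 ± 0.26 at 1 mg/kg (adjusted p = 0.925). Hemgn, a nuclear protein of erythroid and progenitor cells, differed by -0.19 ± 0.42 at 5 mg/kg and by -0.02 ± 0.42 at 1 mg/kg.

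**Figure D2:**
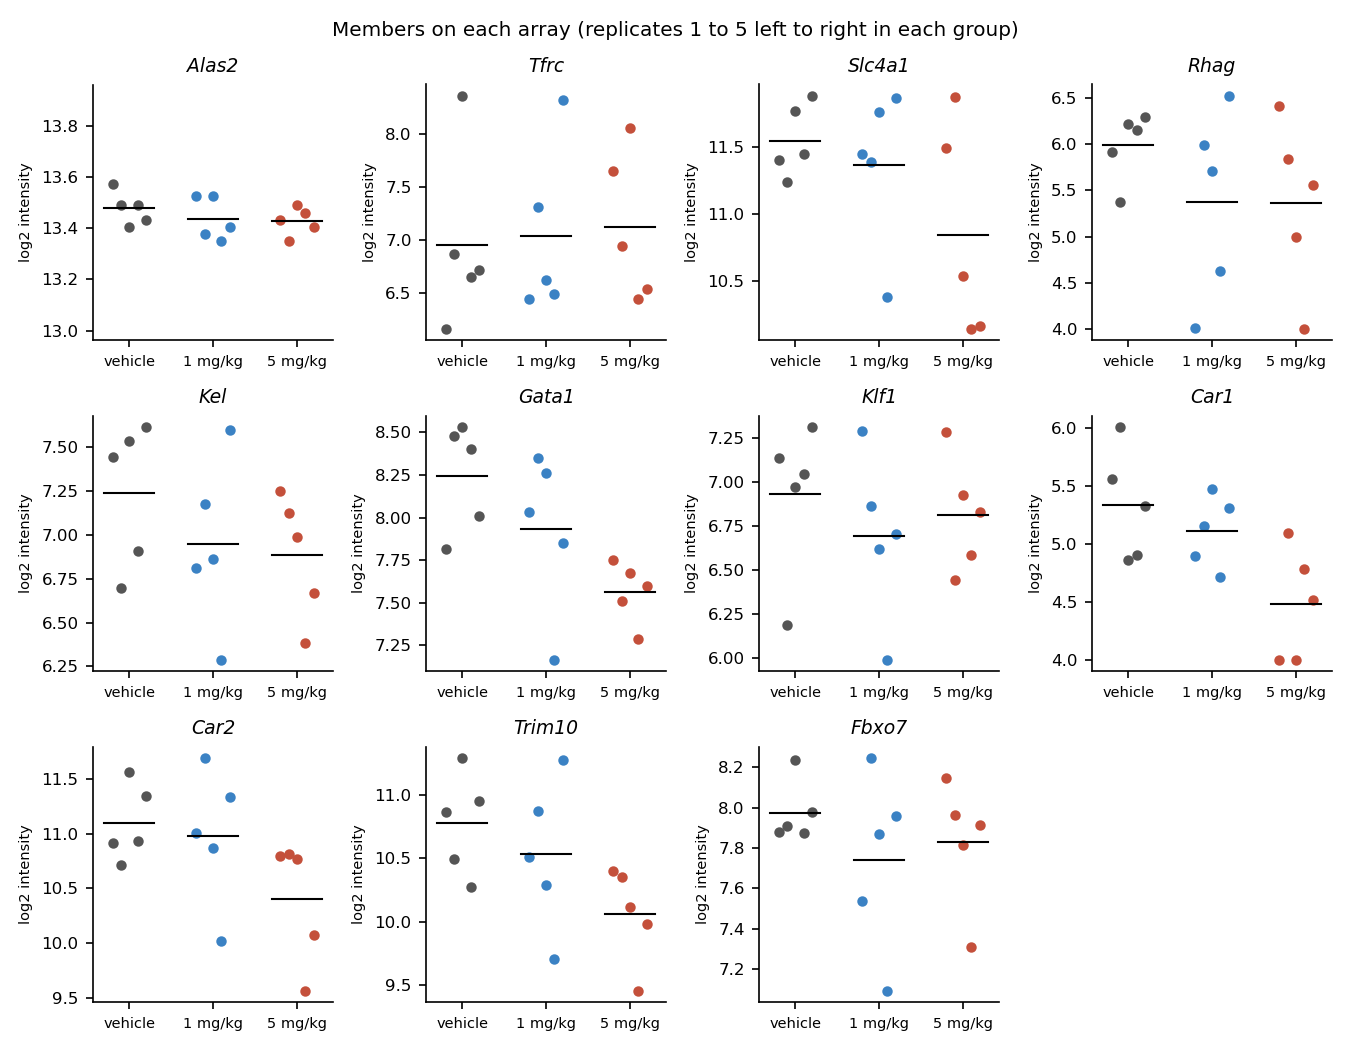
Normalised log2 intensity of 11 members on each of the 15 arrays, with points for arrays, replicates 1 to 5 from left to right in each group, and a black line for the group mean; each panel has its own axis, spanning at least 1 log2 unit and not starting at 0. The 5 mg/kg arrays of Gata1 all lie below the vehicle arrays, Slc4a1 splits into high and low arrays within the 5 mg/kg group, and Alas2 stays between 13.35 and 13.57.

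Among the red cell enzymes, 3 of 3 measured genes were lower at both doses, with medians of -0.69 at 5 mg/kg and -0.11 at 1 mg/kg. Car1 measured 5.56, 6.01, 4.86, 4.90 and 5.33 in vehicle, 4.90, 5.15, 5.47, 4.72 and 5.31 at 1 mg/kg, and 4.00, 5.09, 4.00, 4.79 and 4.52 at 5 mg/kg. Of the 5 mg/kg arrays 4 lay below every vehicle array, replicate 2 lay among them, and 2 were at the floor. Its difference of -0.85 ± 0.27, or 1.81-fold lower, was the largest decrease of any member at 5 mg/kg (unadjusted p = 0.00641, adjusted p = 0.328), and at 1 mg/kg it was -0.22 ± 0.27 (adjusted p = 0.930). With a floor of 32 the 5 mg/kg value was -0.36, and once the 2 vehicle arrays with most 18S signal were left out it was -0.55 (unadjusted p = 0.0781).

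Car2, the faster carbonic anhydrase, measured 10.92, 10.72, 11.56, 10.93 and 11.34 in vehicle, 11.00, 11.69, 10.87, 10.02 and 11.33 at 1 mg/kg, and 10.80, 10.81, 10.77, 9.57 and 10.07 at 5 mg/kg. The 5 mg/kg arrays reached only into the bottom of the vehicle range, and replicates 4 and 5 lay well under it. Its difference was -0.69 ± 0.32 at 5 mg/kg, or 1.61-fold lower (adjusted p = 0.637), and -0.11 ± 0.32 at 1 mg/kg (adjusted p = 0.972). Bpgm, which makes the 2,3-bisphosphoglycerate that loosens oxygen from hemoglobin, differed by -0.18 ± 0.16 at a mean level of 12.94.

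Genes of protein clearance and terminal maturation were lower in 5 of 5 measured cases at 5 mg/kg, with a median of -0.63, and in 4 of 5 at 1 mg/kg, with a median of -0.23. Trim10, an erythroid tripartite-motif protein of terminal differentiation, measured 10.87, 10.49, 11.29, 10.27 and 10.95 in vehicle, 10.51, 10.87, 10.29, 9.71 and 11.28 at 1 mg/kg, and 10.40, 10.35, 10.11, 9.45 and 9.98 at 5 mg/kg. Replicates 3, 4 and 5 at 5 mg/kg were below every vehicle array and the other 2 lay at the foot of the vehicle range. Its difference was -0.71 ± 0.29 at 5 mg/kg, or 1.64-fold lower (unadjusted p = 0.0258, adjusted p = 0.550), and -0.24 ± 0.29 at 1 mg/kg (adjusted p = 0.930).

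Fbxo7, an F-box protein of ubiquitin ligases, measured 7.88, 7.91, 8.24, 7.87 and 7.98 in vehicle, 7.54, 8.25, 7.87, 7.09 and 7.96 at 1 mg/kg, and 8.14, 7.96, 7.82, 7.31 and 7.92 at 5 mg/kg. All vehicle arrays but replicate 3 lay close together, and replicate 4 was the lowest at each dose. Its differences were -0.15 ± 0.22 at 5 mg/kg (adjusted p = 0.945) and -0.23 ± 0.22 at 1 mg/kg (adjusted p = 0.911). Xpo7, a nuclear export receptor used as erythroblast nuclei condense, differed by -0.72 ± 0.47 at 5 mg/kg and by 0.05 ± 0.47 at 1 mg/kg. Its arrays, shown because of values already seen, were 10.46, 10.78, 9.13, 8.21 and 8.87 at 5 mg/kg, against a vehicle range from 9.47 to 10.80. Tmcc2 differed by -0.63 ± 0.38 at 5 mg/kg, with the same value in its other probe set, and Mkrn1, a makorin ubiquitin ligase, by -0.0043 ± 0.14.

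A few arrays were low for most members. Each array was summarised by the median, over the 32 members, of the deviation from the gene's vehicle mean. That median was 0.08, -0.02, -0.35, -0.70 and -0.57 at 5 mg/kg, -0.20, 0.13, -0.16, -0.68 and 0.20 at 1 mg/kg, and 0.03, -0.34, 0.20, -0.10 and 0.18 in vehicle. The 3 lowest of the 15 were thus 5 mg/kg replicate 4, 1 mg/kg replicate 4 and 5 mg/kg replicate 5, while replicates 1 and 2 at 5 mg/kg lay within the vehicle range. Vehicle replicate 2 and 5 mg/kg replicate 3 were alike, each with 26 members below the vehicle mean. On 5 mg/kg replicate 4, 30 of 32 members lay below their vehicle mean and 9 had their lowest value of all arrays; on 1 mg/kg replicate 4 these counts were 27 and 7. On 5 mg/kg replicates 1 and 2, 10 and 19 members lay below the vehicle mean. The median over all tested genes stayed between -0.12 and 0.01 on every array. It was -0.05 on 5 mg/kg replicate 4 and lowest, at -0.12, on 1 mg/kg replicate 4. The counts by array were not made over all tested genes, so they do not show what was particular to the members. Some other cell measures also parted 5 mg/kg replicates 1 and 2 from replicates 3 to 5. T cell markers averaged 6.86, 6.98, 7.74, 7.53 and 7.90 on replicates 1 to 5. Neutrophil markers averaged 6.11, 5.55, 6.84, 6.79 and 6.78, and eosinophil and basophil markers 5.73, 4.64, 4.45, 4.03 and 4.38. Monocyte, B cell, natural killer cell and platelet marker means did not part them. The part of these cells in the split was not tested. The order of arrays depended on scaling: without it, 1 mg/kg replicate 1 was lowest, at -1.86, where the median over all genes was itself -1.18.

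**Figure D3:**
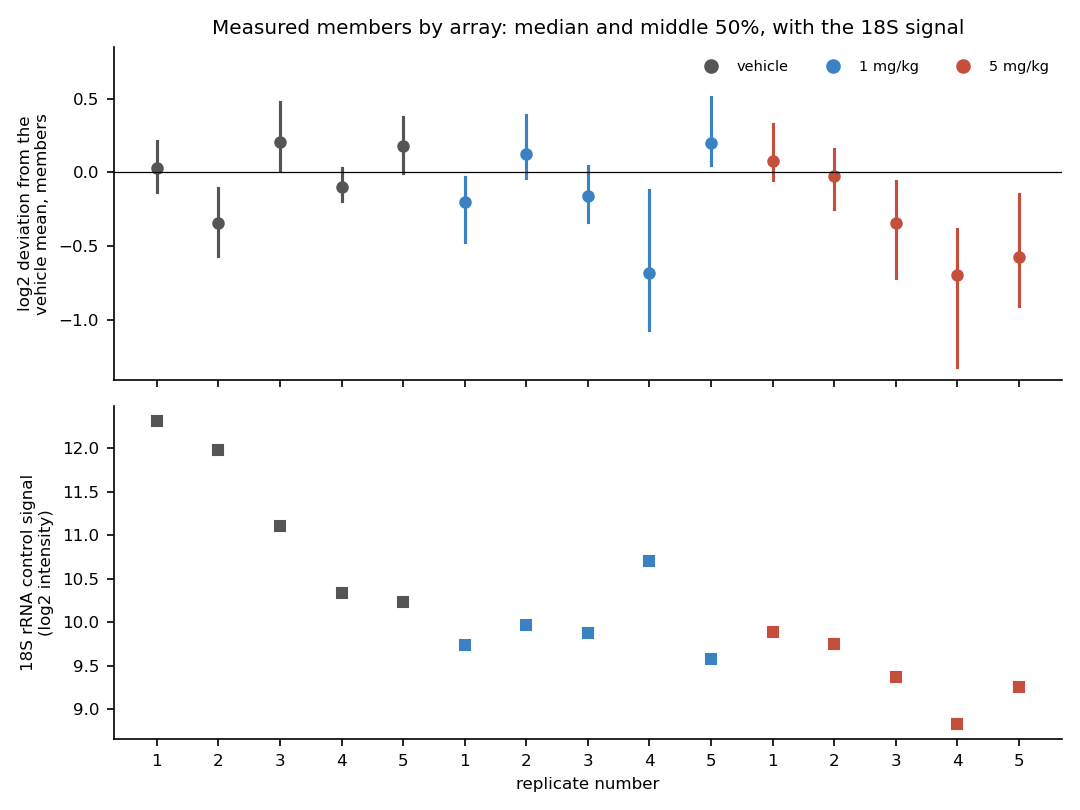
Top, the median and middle 50% of the 32 members' log2 deviation from the vehicle mean on each array; bottom, the log2 signal of the 18S control probe sets on the same arrays, both by group and replicate number. In the top plot 5 mg/kg replicates 3, 4 and 5 and 1 mg/kg replicate 4 are low, as is vehicle replicate 2, at -0.34 beside -0.35 for 5 mg/kg replicate 3, while the first pair at 5 mg/kg sits near 0; in the bottom plot vehicle is highest and 5 mg/kg lowest.

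Leaving out single arrays changed the size more than the direction. Dropping 5 mg/kg replicate 4 brought the members' median at that dose to -0.23, with 26 of the 32 lower, and dropping replicate 5 instead also brought it to -0.23, with 28 lower. At 1 mg/kg the median was -0.01 and 17 of 32 members were lower without 1 mg/kg replicate 4, so that count rested on 1 array; without 1 mg/kg replicate 5 the median was -0.24, and without vehicle replicate 5 it was -0.05. The count of 5 members at an unadjusted p under 0.05 at 5 mg/kg was 2 when vehicle replicate 3 was dropped, and likewise for 5 mg/kg replicate 4. It was 3 when any of vehicle replicates 4 and 5, 5 mg/kg replicate 5 and 1 mg/kg replicates 3 and 5 was dropped.

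The members are given here by range of signal, as a description with no test. Signal depends on the probe set as well as on the RNA, so it does not rank the genes by expression. The 5 members with a mean over 12 on the log2 scale (Alas2, Fech, Mkrn1, Slc25a37 and Bpgm) had a median difference of -0.05, and the 7 between 8 and 12 (Slc4a1, Car2, Trim10, Bsg, Xpo7, Tmcc2 and Urod) had a median of -0.69, all 7 being lower. All tested genes in those ranges had medians of -0.04 (47 genes) and -0.08 (1042 genes). Without regard to sign, the median difference of all tested genes was 0.0896 over 12 and 0.216 between 8 and 12, so the very bright genes as a whole differed less. The 12 members between 6 and 8 had a median of -0.20 and the 8 under 6 one of -0.68. The limits at 6, 8 and 12 were set after the values were seen.

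Some members could be read at several levels, and 3 were picked for this after their values were seen. Mkrn1 had 6 measured probe sets. From the brightest to the dimmest, with means of 13.37, 12.53, 12.53, 12.28, 11.35 and 8.75, their differences at 5 mg/kg were -0.0043, -0.18, -0.32, -0.05, -0.52 and -0.69. Fech gave 0.02 at a mean of 13.39, -0.11 at 12.99 and -0.31 at 11.64. Xpo7 ran the other way, with -0.72 at a mean of 9.99 and -0.49 at 8.73. Of the 14 members with several measured probe sets, 10 had 1 sign in all of them at 5 mg/kg, and Bpgm, Fech, Sptb and Tfrc did not. None of the 54 measured member probe sets passed an adjusted p of 0.05 when each was fitted on its own among 19736 probe sets. Differences between probe sets of 1 gene were not tested. The shared probe sets of Bnip3l, a mitophagy receptor needed to clear mitochondria from reticulocytes, had means from 12.16 to 13.34 and differences from -0.19 to -0.10 at 5 mg/kg.

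**Figure D4:**
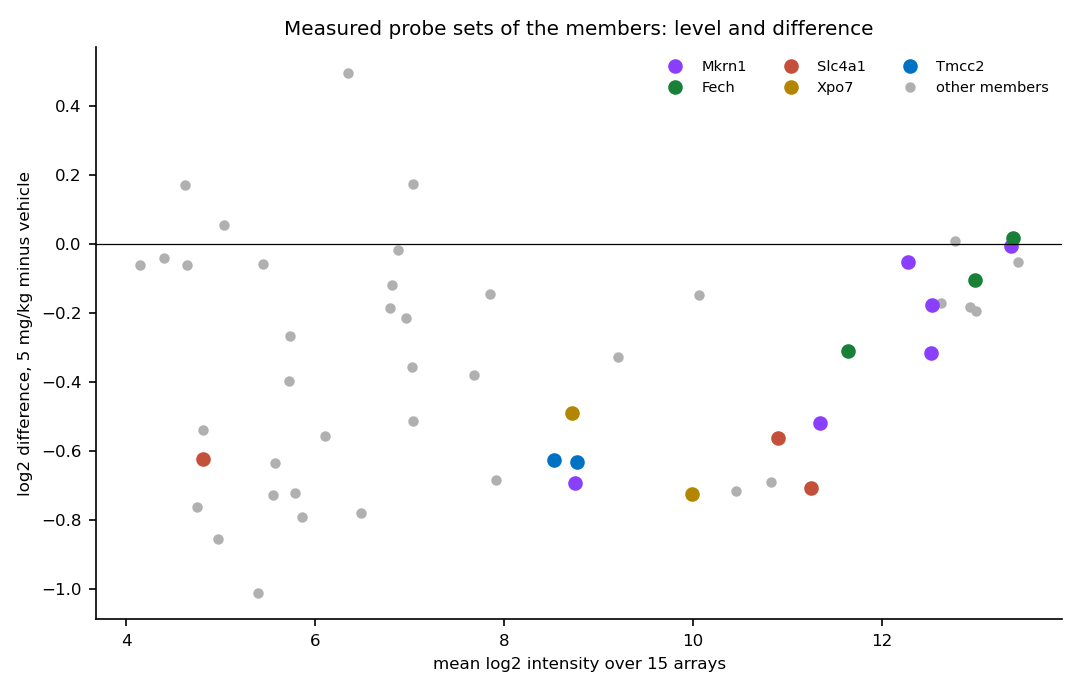
Log2 difference of 5 mg/kg from vehicle against the mean log2 intensity over 15 arrays for the 54 measured probe sets of the members, with 5 genes of several probe sets in colour. Probe sets with a mean over 12 lie between -0.32 and 0.02, and the 2 probe sets of Mkrn1 with means under 12 lie at -0.52 and -0.69.

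Globins, the cargo of these cells, gave no common direction. Hba-a1 and Hba-a2, the adult alpha genes, differed by 1.02 ± 0.71 and -0.39 ± 0.27 at 5 mg/kg in the probe sets annotated with each alone, and Hbb-b2, an adult beta gene, by -0.26 ± 1.01. The large error of Hbb-b2 came with single arrays: its lowest value was 7.79 in vehicle and 7.54 at 5 mg/kg, against highest values of 12.88 and 12.94. The embryonic genes Hbb-bh1, Hbb-y and Hba-x differed by 0.09 ± 0.42, 0.03 ± 0.75 and -0.22 ± 0.24. Probe sets shared between the alpha genes or between the beta genes were very bright, with means from 12.53 to 13.17 and differences between -0.15 and 0.07 at 5 mg/kg. Such sequences are near-identical, so single-gene globin values are uncertain.

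Other genes of the erythroid pathways had a median difference closer to 0 than the members. Of 103 genes listed, 81 were tested: at 5 mg/kg 55 were lower and 26 higher, with a median of -0.10 and 0 past the test in either direction, and at 1 mg/kg 45 were lower and 36 higher, with a median of -0.06. Nfe2, the p45 subunit of the NF-E2 factor of erythroid cells and megakaryocytes, had the smallest p at 5 mg/kg but not at 1 mg/kg. It was 7.90 ± 0.16 in vehicle, against 7.38 ± 0.32 at 1 mg/kg and 6.99 ± 0.35 at 5 mg/kg (SD, n = 5), and all 5 mg/kg arrays, from 6.60 to 7.44, lay below all vehicle arrays, from 7.73 to 8.08. That pattern was held by 1.46% of all genes tested. The difference of -0.91 ± 0.21 at 5 mg/kg did not pass the test across all genes (limma, adjusted p = 0.124). Stat5a, which relays erythropoietin and other cytokine signals, differed by 0.62 ± 0.25 and Jak2, the kinase bound to the erythropoietin receptor, by 0.36 ± 0.25.

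Of 17 other membrane genes tested 15 were lower at 5 mg/kg, led by Atp2b4, a calcium pump, at -0.63 ± 0.34, and Cd59a, an inhibitor of complement, at -0.59 ± 0.33, while Slc2a1, the glucose transporter GLUT1, differed by 0.31 ± 0.19. Of 20 other enzyme and maturation genes 17 were lower, among them Ube2o, a ubiquitin-conjugating enzyme that clears ribosomes from reticulocytes, at -0.66 ± 0.43, and Ubac1 at -0.36 ± 0.27, with Gpx1, the main glutathione peroxidase, at 0.19 ± 0.15. Of 23 other heme and iron genes 13 were lower and 10 higher, including Abcg2, a porphyrin exporter, at -0.40 ± 0.24, Blvrb, a biliverdin reductase, at -0.48 ± 0.37 and Slc11a2, the iron transporter DMT1, at 0.23 ± 0.19. The remaining erythroid regulators were 7 lower and 8 higher of 15 with Nfe2, Stat5a and Jak2 counted. None of these genes passed the test.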

How the data were processed

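Whole blood RNA of 15 mice was read on Affymetrix 3′ arrays, with biotin-labelled cRNA made from 200 ng, per the labels' protocols. The authors deposited a linear intensity for each probe set, some below 0. How these were computed or normalised is not given in the sources used here. Before scaling, the 64 control probe sets were removed, the others quantile normalised, values under 16 set to 16 (52.7% of values) and log2 taken. Of the probe sets, 34945 had 1 gene, 932 several and 9160 none listed; the annotation can be old. Genes above the floor on at least 5 arrays were tested with limma 3.58.1 (lmFit and eBayes, R 4.3.3) on all 15 arrays, with Benjamini-Hochberg adjustment over 12499 genes. A lower difference of a gene near the floor is understated. Precision is limited by the number of arrays and, for dim genes, by the floor. Array by array, values are given for members past the threshold or without overlap between a dose and vehicle, the 4 of smallest p at each dose, and Alas2, Slc4a1, Klf1, Gata1, Tfrc and Ahsp; globins and up to 3 genes of smallest p at 5 mg/kg stand for each other list. The member genes, lists and tests were chosen with earlier results of these data known. Same-numbered arrays of different groups correlated at over 0.1 in 3 of 15 pairs, so the numbers were not taken to pair mice. The method was checked on simulated data, with each gene drawn independently and planted changes larger than any member's difference in the main fit. That check therefore does not show what differences of the members' size could be found. Promoters are RefSeq's, on GRCm38.p6.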

Additional observations from a re-analysis of the deposited data

Results flagged for a closer look

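Of 45 groups of 5 arrays examined for a lone extreme value (11 members and 4 array measures in 3 groups), 1 had an array far from the others: Fbxo7 in vehicle replicate 3 was 8.235 on the log2 scale, the highest of its group, with the next vehicle array at 7.98. Its gap was 0.712 of the group's range. Chance alone marks about 1 group in 20.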

How the results depend on the processing

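Over 30 alternatives, the members past an adjusted p of 0.05 stayed at 0 in all 3 comparisons; the smallest adjusted p of a member was 0.152 at 5 mg/kg, 0.689 at 1 mg/kg and 0.355 between the doses. The members' median ran from -0.49 to -0.20 at 5 mg/kg and from -0.25 to -0.01 at 1 mg/kg, and 26 to 30 members were lower at 5 mg/kg. These moves were smaller than 0.226, the SD of the median between single vehicle arrays. That SD exceeds the size of the whole 1 mg/kg median of -0.11 and is not the error of a group difference. It therefore cannot show that the medians were stable. Without scaling the median of all genes at 5 mg/kg was 0.10, and that of the members -0.27, with 26 members lower where 36.7% of all genes were. Leaving out 1 array in turn gave 17 to 28 members lower at 1 mg/kg and 2 to 6 members at an unadjusted p under 0.05 at 5 mg/kg. That last count was 0 without scaling, 3 when scaled by the median of bright probe sets, 3 with a floor of 32, 2 with the 18S signal as a covariate and 8 with each gene's measured probe set of lowest mean. The last setting, and leaving out the 2 vehicle arrays with most 18S signal, were chosen after seeing the data. Of 660 values of the 11 named members, 645 kept their sign and 0 passed the threshold. Signs turned for Tfrc with the 18S covariate (-0.0643 at 5 mg/kg, -0.0779 at 1 mg/kg), without those 2 vehicle arrays (-0.12 and -0.20) and in its dimmer probe set (-0.0396 at 5 mg/kg), for Klf1 at 5 mg/kg without scaling (0.0188), for Alas2 at 1 mg/kg with scaling by bright probe sets (0.0031), and for Car1 at 1 mg/kg without the 2 vehicle arrays (0.0781). Single left-out arrays gave Tfrc from -0.0583 to 0.53 at 5 mg/kg and from -0.23 to 0.44 at 1 mg/kg, Slc4a1 at 1 mg/kg from -0.30 to 0.0680 and Car2 at 1 mg/kg from -0.29 to 0.13. The cause was not tested. With the replicate block the median at 5 mg/kg was -0.37 and 0 members passed; the block changed no call. Dim genes near the floor limit what a difference can show.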
